A study of Mus musculus with 9 samples.

Results

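The cadherins and non-clustered protocadherins are 33 of the 14771 named genes in this mouse data set, and are defined by name alone: every gene whose symbol is Cdh, Pcdh, Celsr, Fat or Dchs followed by a number. The family itself was chosen with earlier results of these data known. Its members comprise 16 Cdh genes, 9 Pcdh genes, 4 Fat genes, 2 Celsr genes and 2 Dchs genes. Of these, 25 passed the filter on low values (10 normalized reads in at least 3 libraries) and were tested, and 8 did not. Another 10 symbols of this form in the RefSeq gene table were not analysed here. The clustered Pcdha, Pcdhb and Pcdhg genes lie outside the rule. Messenger RNA was sequenced from 3 groups of 3 libraries. Astroglia (AG; AG_1, AG_2, AG_3) were brain cells of the C57BL/6 strain with the genotype label p53 DN, Nf1 shRNA. Brainstem tumour cells (BS; BS_287, BS_295, BS_296) and olfactory bulb tumour cells (OB; OB_257, OB_287, OB_295) both came from mice of mixed 129 and C57BL/6 background with Foxr2 overexpression, Foxr2 being a forkhead transcription factor, and a p53 cko allele. All groups thus carry an alteration of p53, and AG alone an Nf1 shRNA. AG thus differ from both tumour groups in strain as well as genotype, and these cannot be told apart. The labels give neither ages nor culture histories, and do not say which promoter drives Foxr2 or whether replicate libraries are separate animals or cultures; the p-values rest on the spread among the libraries, part or all of which may be technical.

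Cadherins are membrane proteins whose calcium-binding ectodomains hold cells together. The classical cadherins (type I, such as N-cadherin, and type II, such as cadherin-6) bind like cadherins on the neighbouring cell and are linked to actin through catenins. In the developing brain, different classical cadherins and delta protocadherins mark different domains, nuclei and fibre tracts, and N-cadherin holds the apical junctions of radial glia. The giant Fat and Dachsous cadherins bind each other across cell borders and feed into planar polarity and Hippo signalling, and the Celsr proteins are the core cadherins of planar polarity.

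The libraries held between 11300273 and 19868282 reads. Values are reads divided by the authors' size factor of each library (normalized reads), and differences are in log2(normalized reads + 1), a scale that makes changes of low genes look smaller. Correlations of log2 values over 10576 genes were at least 0.992 between AG libraries and ran from 0.841 to 0.959 among tumour libraries. OB_257 lay apart on the second principal component (14.6% of the variance) and BS_287 on the third (9.97%). Of the astrocyte markers, Gfap ranged from 0.834 to 3.27 in AG, Aqp4 from 1.09 to 1.97 and Aldh1l1 from 5.003 to 5.91. In the tumours Gfap had 91.4 in BS_287, 45.3 in BS_296 and 0 to 6.4 in the other libraries, Aqp4 at most 1.9 and Aldh1l1 at most 2.96. Each of these 3 has several annotated transcripts, and such genes have low values in this table (the median row value was 260.0 where a gene has a single annotated transcript and 8.84 otherwise), so that their low values are not read as low expression. Slc1a3 (753 to 855), Sox9 (2328 to 2947) and Gja1 (4961 to 5396), which astrocytes also express, were present in AG. S100b, with 1 annotated transcript, had 25.01 to 27.2 there and 5.87 to 6616 in the tumours. Aldoc, with 2 annotated transcripts, had at most 1.09 in AG and 5.03 to 51.1 in the tumours. Against AG, limma called Aldoc higher at both sites, S100b higher in OB and Gja1 lower in OB. Slc1a3 was at 11447 to 25665 in the tumour libraries other than OB_257, above AG. Some smooth muscle and fibroblast markers were high in AG. The summed level of the 5 smooth muscle and pericyte markers in the table was 58710.0 to 62350.0 in AG against 45.3 to 168.5 in the tumour libraries. That of 6 fibroblast markers was 35650.0 to 46420.0 against 11.1 to 218.4. Most of the AG sums came from Acta2 (52507 to 55942) and Col1a1 (35280 to 46040). Tagln, Cnn1, Col1a2, Col3a1 and Dcn were also called lower at both sites. Rgs5, Des, Lum and Pdgfra had at most 8.71 in AG, and Des and Pdgfra reached 17.4 and 97.8 in the tumours. Markers of oligodendrocyte precursors ran the other way in sum: 6 of them summed to 17.4 to 20.01 in AG and to 33880.0 to 80010.0 in the tumour libraries. Olig1, Olig2 and Cspg4 were called higher at both sites, Sox10 and Gpr17 in OB only and Pdgfra at neither. In BS_287 Sox10 had 3.35, Gpr17 0 and Pdgfra 2.52, and in OB_257 Pdgfra had 1.11. The 6 neuron markers in the table summed to 700.2 to 801 in AG and 1077 to 5305 in the tumours, of which Elavl3 and Syp were called higher at both sites, while 3 ependymal and choroid markers summed to 2071 to 2551 in AG and to 67.1 to 231.5 in the tumours. The part of these cell types in the differences from AG was not tested, and in bulk RNA fewer cells of a type and less RNA per cell cannot be told apart.

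Between AG and the tumour cells some cadherins were lower and others higher. N-cadherin (Cdh2), cadherin-6, cadherin-11, T-cadherin (Cdh13), E-cadherin (Cdh1) and Fat1 were lower at both tumour sites, while R-cadherin (Cdh4), cadherin-20, the protocadherins Pcdh10 and Pcdh17, Fat3, Dachsous-1 (Dchs1), Celsr1 and Cdh24 were higher. In BS against AG, limma called 8 members higher and 8 lower among 25 (64%), where 35.1% of all 10576 genes were called (15.6% higher, 19.5% lower). OB against AG had 9 called higher and 10 lower (76%), against 34.9% of all genes (16% higher, 19% lower). The median absolute log2 difference of the members was 2.98 in BS and 3.02 in OB, against 0.77 and 0.776 over all genes. Some members passed the filter only through the side where they were high. These were Cdh4, Cdh20, Pcdh10, Pcdh17, Pcdh20 and Fat3 in the tumours, and Cdh1, Cdh17 and Pcdh19 in AG. For them a large difference was partly set by the filter, and they enter the shares, medians and overlap counts given here. The filter acts on all genes too. The median signed difference of the members was -0.53 in BS and -0.73 in OB. Setting Cdh20 and Pcdh17, which had 0 reads in AG, at their lower bounds could not move these medians, as both stay far above them. Other settings did move them, and the sign in BS depended on the filter. Without a filter the member median was 0.08 in BS and -0.64 in OB, over 33 members. With a filter of 50 it was -0.226 and -0.674, and with edgeR -0.24 and -0.605. Both comparisons share the AG libraries. In 18 of the 25 members all 6 tumour libraries lay on 1 side of all AG libraries (8 above, 10 below), as did 44.4% of all genes tested (19.4% above, 25% below). Site by site, the BS libraries did not overlap with AG in 19 of 25 members, against 58.4% of all genes, and the OB libraries in 21 of 25, against 58.3%. Upper-quartile rescaling moved the median of all genes from -0.01 to 0.20 in OB and from -0.03 to 0.19 in BS. It turned the split of all calls from 1687 higher and 2008 lower to 2214 and 1647 in OB, and from 1652 and 2060 to 2178 and 1644 in BS. The members' split stayed at 9 and 10 in OB and 8 and 8 in BS.

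**Figure D1:**
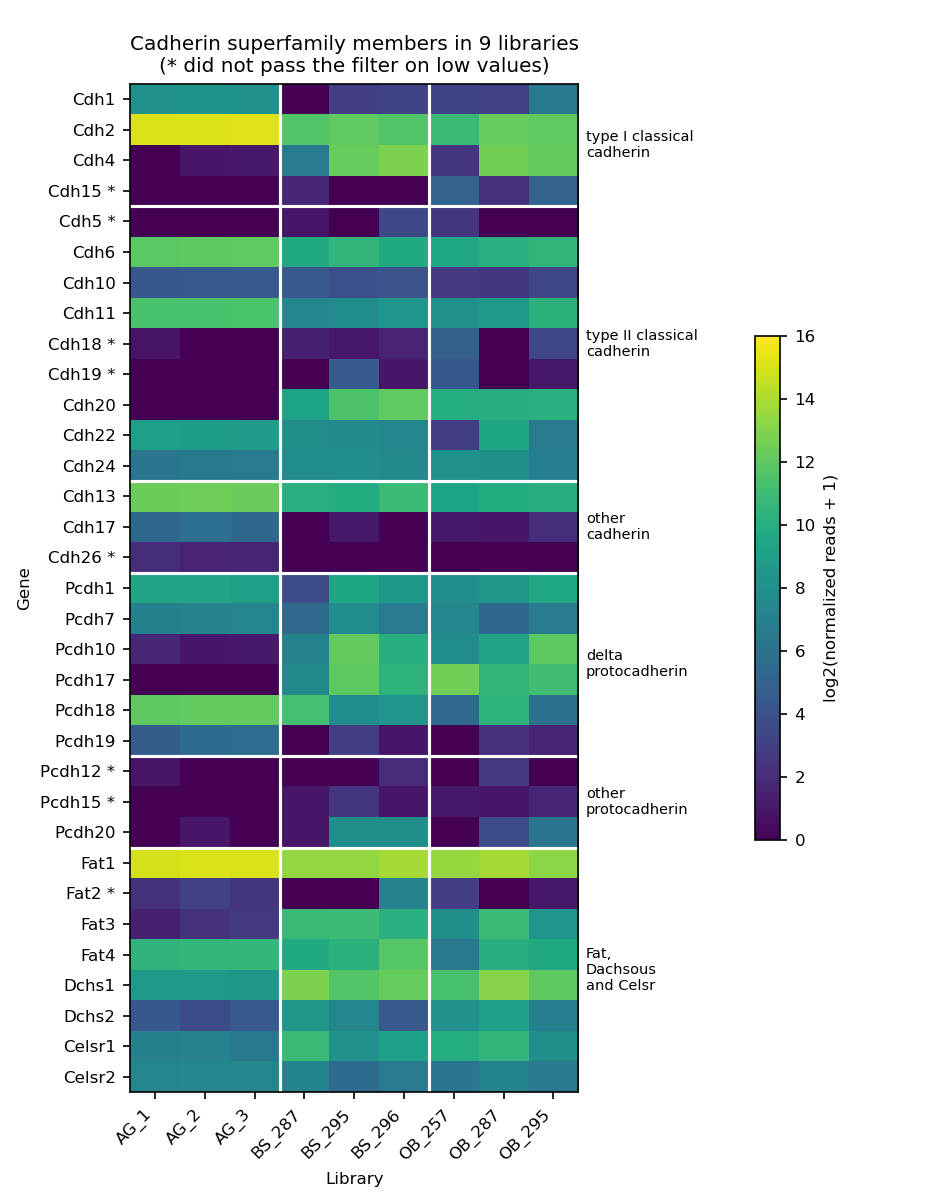
Level of each of the 33 members (rows, grouped by subfamily) in the 9 libraries (columns), as log2(normalized reads + 1) on a colour scale from 0 to 16. Cdh4, Cdh20, Pcdh10, Pcdh17 and Fat3 are dark in AG and bright in most tumour libraries, while Cdh2 and Fat1 are brightest in AG. Rows with a star did not pass the filter on low values.

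Among the type I classical cadherins, the neural cadherin gene Cdh2 had the highest values in AG. Cdh2 had 36413, 37065 and 37996 in AG. In the tumours it had 3297 in BS_287, 4286 in BS_295 and 3249 in BS_296, and 1771 in OB_257, 4936 in OB_287 and 4450.4 in OB_295. No tumour library came within the AG range, and the ratio of means was 10.3-fold lower in BS and 9.99-fold lower in OB. limma put the difference from AG at -3.37 ± 0.35 (SE) in BS (limma adjusted p = 0.000183) and -3.45 ± 0.35 in OB (limma adjusted p = 0.00016). R-cadherin, the retinal and neural relative encoded by Cdh4, went the other way. Cdh4 had 0, 0.986 and 1.09 in AG, or 2 reads in all. It reached 96.4 in BS_287, 4924 in BS_295 and 7243 in BS_296, and 4.42 in OB_257, 5821 in OB_287 and 4655 in OB_295. The tumour libraries were thus far apart, with OB_257 and BS_287 low and the other 4 at 4655 or more. The ratio of reads to AG was 6018-fold (exact 95% counting interval 1666 to 49695) in BS and 5666-fold (exact 95% counting interval 1568 to 46794) in OB, and the interval covers counting error only. Both differences passed the test, at 9.88 ± 2.67 in BS (limma adjusted p = 0.021) and 8.36 ± 2.67 in OB (limma adjusted p = 0.0402). In OB Cdh4 was not called without AG_1, AG_2, AG_3, BS_295, BS_296, OB_287 or OB_295 (limma adjusted p 0.0517 to 0.122), with a pseudocount of 5 (0.0625) or in a fit of AG and OB alone (0.0508). In BS the call ended without AG_1, AG_2, AG_3, BS_295 or BS_296 (limma adjusted p 0.0589 to 0.0708). One of the 2 Cdh4 transcripts in the table, NM_009867, held all but 0.0321% of its level in the tumours.

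E-cadherin, the epithelial cadherin encoded by Cdh1, had 284, 307 and 274 in AG. Tumour libraries had 0 in BS_287, 6.4 in BS_295 and 8.87 in BS_296, and 8.84 in OB_257, 7.61 in OB_287 and 82.6 in OB_295. All lay below AG, with OB_295 the highest of them. On the log2 scale the difference from AG was -6.11 ± 1.06 (SE) in BS (limma adjusted p = 0.00273) and -3.91 ± 1.06 in OB (limma adjusted p = 0.0211). In OB the call ended without AG_1, AG_2, AG_3, OB_257 or OB_287 (limma adjusted p 0.0555 to 0.0656) and with edgeR (0.0567). Of the 2 epithelial markers in the table, Krt8 had at most 4.36, in AG_3, and Epcam at most 56.2, in BS_287, and 1.97 to 5.44 in AG.

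Type II cadherins also included genes that rose and genes that fell. Cdh20, a type II cadherin of the developing nervous system, had 0 reads in every AG library. It was present in all tumour libraries, with 617 in BS_287, 3005 in BS_295 and 4463 in BS_296, and 942 in OB_257, 1073 in OB_287 and 1141 in OB_295. The increase was at least 927-fold in BS and at least 362-fold in OB against a floor of 3 reads per library, and at least 212-fold in BS_287, the lowest tumour library (limma adjusted p = 8.42e-06 and 1.43e-05). OB libraries lay close together (SD 0.141 on the log2 scale), BS libraries did not (SD 1.51). Cdh24 had 76.7, 86.7 and 91.5 in AG. It had 207 in BS_287, 228 in BS_295 and 198 in BS_296, and 282 in OB_257, 245 in OB_287 and 118 in OB_295, all above AG. Against AG, the log2 difference was 1.30 ± 0.34 (SE) in BS (limma adjusted p = 0.0185) and 1.24 ± 0.34 in OB (limma adjusted p = 0.0226). The calls of this small increase ended without AG_1, AG_2 or AG_3 in BS (limma adjusted p 0.0535 to 0.071) and without AG_1, AG_2, AG_3, OB_257 or OB_287 in OB (0.0542 to 0.0824).

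Cadherin-11, typical of mesenchymal cells and also found in brain, had 2716, 2725 and 2819 in AG. In the tumours Cdh11 had 161 in BS_287, 209 in BS_295 and 331 in BS_296, and 259 in OB_257, 425 in OB_287 and 1220.5 in OB_295. All 6 were below AG, as were their summed fibroblast markers, whose part in the Cdh11 levels was not tested. OB_295 came nearest to AG in Cdh11. The difference from AG was -3.62 ± 0.52 (SE) in BS (limma adjusted p = 0.000997) and -2.42 ± 0.52 in OB (limma adjusted p = 0.00735). Cadherin-6, a marker of compartment borders in the embryonic forebrain, had 3864, 4125 and 4420.1 in AG. Cdh6 had 843 in BS_287, 1504 in BS_295 and 852 in BS_296, and 760.4 in OB_257, 1131 in OB_287 and 1397 in OB_295. limma put the difference from AG at -2.01 ± 0.29 (SE) in BS (limma adjusted p = 0.00102) and -1.96 ± 0.29 in OB (limma adjusted p = 0.00115), with no overlap between AG and tumour libraries. Cdh10 was low throughout: AG libraries had 20.01 to 22.9, BS libraries 13.9 to 21.8 and OB libraries 4.76 to 9.78. It was called lower in OB (-1.58 ± 0.38, limma adjusted p = 0.0122) and not in BS (-0.31 ± 0.38, limma adjusted p = 0.554). Cdh22, a type II cadherin of the brain, was not called at either site (limma adjusted p = 0.489 in BS and 0.155 in OB). It stood at 445 to 531 in AG and 160 to 255 in BS, while OB libraries ranged from 6.63 in OB_257 to 667 in OB_287, on both sides of AG. Cdh22 was called lower in BS in a fit of AG and BS alone (limma adjusted p 0.00544) and in OB without OB_287 (0.0116).

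T-cadherin, encoded by Cdh13, lacks the cytoplasmic tail of the classical cadherins and is anchored by a lipid. Cdh13 had 5521, 5596 and 5252 in AG. It had 1145 in BS_287, 919.6 in BS_295 and 1879.8 in BS_296, and 632 in OB_257, 909.8 in OB_287 and 998 in OB_295, all below AG. On the log2 scale the difference from AG was -2.12 ± 0.28 (SE) in BS (limma adjusted p = 0.000641) and -2.71 ± 0.28 in OB (limma adjusted p = 0.000168). Cdh17, the liver-intestine cadherin, had 41.4 to 57.2 in AG and at most 3.26 in any tumour library. It was called lower at both sites, at -5.21 ± 0.47 in BS (limma adjusted p = 7.9e-05) and -4.18 ± 0.47 in OB (limma adjusted p = 0.000264), and the ratio of reads in BS, which had 1 read in all, was 147-fold (exact 95% counting interval 25.9 to 5829).

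**Figure D2:**
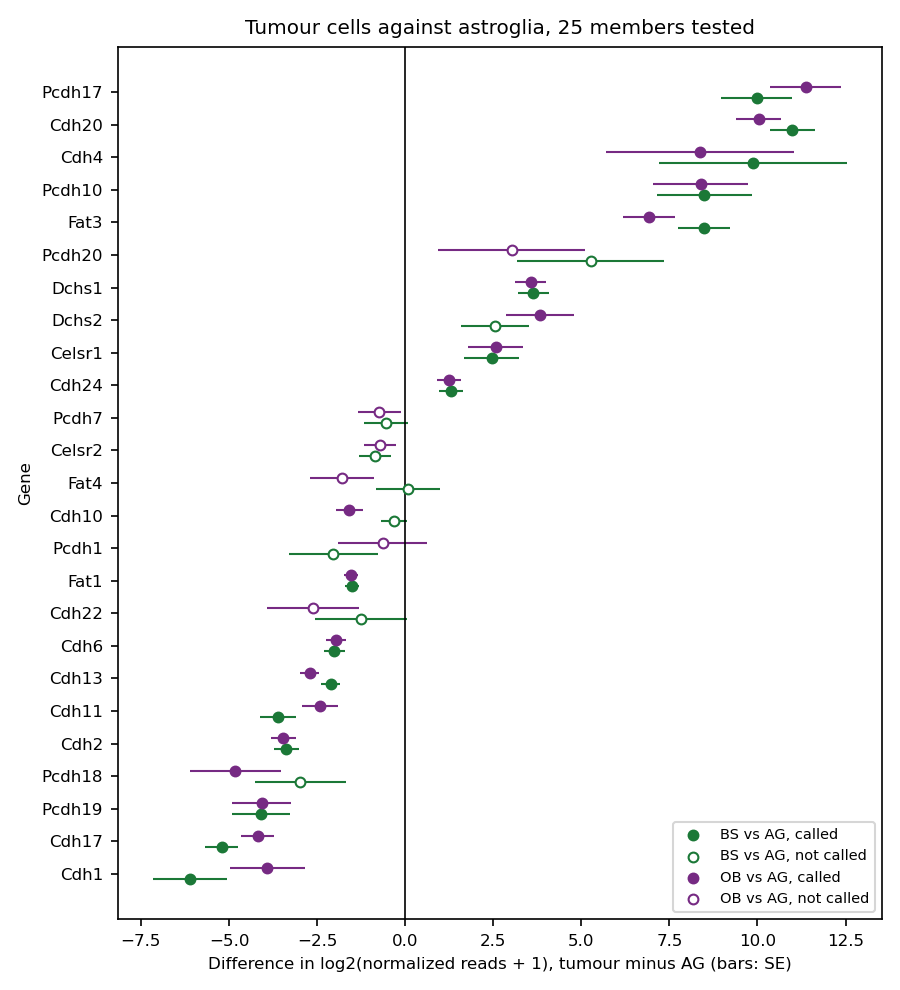
Difference in log2(normalized reads + 1) between tumour cells and AG for the 25 members tested, sorted by the mean of both sites, with bars for the SE; filled points were called by limma at an adjusted p under 0.05. Pcdh17, Cdh20, Cdh4, Pcdh10 and Fat3 stand at 6.92 or more at both sites, and Cdh1, Cdh17 and Pcdh19 at -3.91 or less.

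Of 6 delta protocadherins tested, 2 rose at both sites, 1 fell at both and 1 fell in OB. Pcdh17, a delta protocadherin that groups axons and organizes synapses in corticobasal circuits, had 0 reads in every AG library. It had 189 in BS_287, 4134 in BS_295 and 1304 in BS_296, and 5891 in OB_257, 1399 in OB_287 and 2218 in OB_295. BS_287 was the lowest and OB_257 the highest. The increase was at least 645-fold in BS and at least 1089.8-fold in OB, and at least 64.9-fold in BS_287 alone (limma adjusted p = 0.000155 and 7.66e-05). Pcdh10, which recruits the WAVE complex to cell contacts and is needed for striatal axon growth, had 2.5, 0.986 and 1.09 in AG. Pcdh10 had 139 in BS_287, 4629 in BS_295 and 1035 in BS_296, and 209 in OB_257, 660.4 in OB_287 and 3959 in OB_295, all above AG but up to 33.2-fold apart. Against AG, the log2 difference was 8.49 ± 1.34 (SE) in BS (limma adjusted p = 0.00168) and 8.39 ± 1.34 in OB (limma adjusted p = 0.00174). Its 4 transcripts in the table moved together: NM_001098171 held 67.4% of the tumour reads, NM_001098170 18.6%, NM_011043 11.0% and NM_001098172 2.97%.

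Pcdh18 fell in OB. Pcdh18 had 4205, 4588 and 4559 in AG. It had 2402 in BS_287, 224 in BS_295 and 329 in BS_296, and 44.2 in OB_257, 1302 in OB_287 and 64.1 in OB_295. Every tumour library was below AG, with BS_287 and OB_287 the nearest to it. The difference from AG was -2.98 ± 1.29 (SE) in BS (limma adjusted p = 0.106) and -4.83 ± 1.29 in OB (limma adjusted p = 0.0197), so that the decrease passed in OB alone; the difference between the sites did not pass (limma adjusted p = 0.67). The OB call ended without AG_1, AG_2, AG_3, OB_257 or OB_295 (limma adjusted p 0.0532 to 0.0657) and with edgeR (0.106). The BS decrease was called without BS_287 or OB_287 (0.0233 to 0.0441) and in a fit of AG and BS alone (0.0316). Pcdh19, an X-linked protocadherin gene that is mutated in a form of epilepsy and binds N-cadherin, had 25.8 to 53.4 in AG and at most 6.4 in the tumours. It fell at both sites, with a log2 difference of -4.10 ± 0.83 in BS and -4.08 ± 0.83 in OB (limma adjusted p = 0.00599 in both). Pcdh19 has 2 annotated transcripts, of which 1 is in the table.

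limma called none of Pcdh1, Pcdh7 and Pcdh20 against AG; edgeR and DESeq2 did not call Pcdh1 or Pcdh7 either. Pcdh1 had 554 to 662 in AG and 229 to 785 in OB, while BS ranged from 12.6 in BS_287 to 677 in BS_295. Pcdh7, with 4 annotated transcripts of which 1 is in the table, had 130.1 to 151 in AG and 41.9 to 213 over the tumour libraries. Pcdh20 had 1 read in AG and divided the tumours: 0.839 in BS_287, 249.6 in BS_295 and 246 in BS_296, and 0 in OB_257, 12.4 in OB_287 and 78.2 in OB_295. BS_287, OB_257 and OB_287 were near 0 and the other 3 were not. The ratio of reads was 483-fold (exact 95% counting interval 86.3 to 19119.7) in BS and 92.6-fold (exact 95% counting interval 16.2 to 3699) in OB, and neither difference passed limma (limma adjusted p = 0.0821 and 0.292). Other fits did call Pcdh20 higher: in BS, edgeR (adjusted p 0.0292), DESeq2 (0.000153) and limma without BS_287 (0.0081), in OB, DESeq2 (0.00806), and at both sites limma without BS_287 and OB_257 (0.000251 in BS and 0.00243 in OB).

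**Figure D3:**
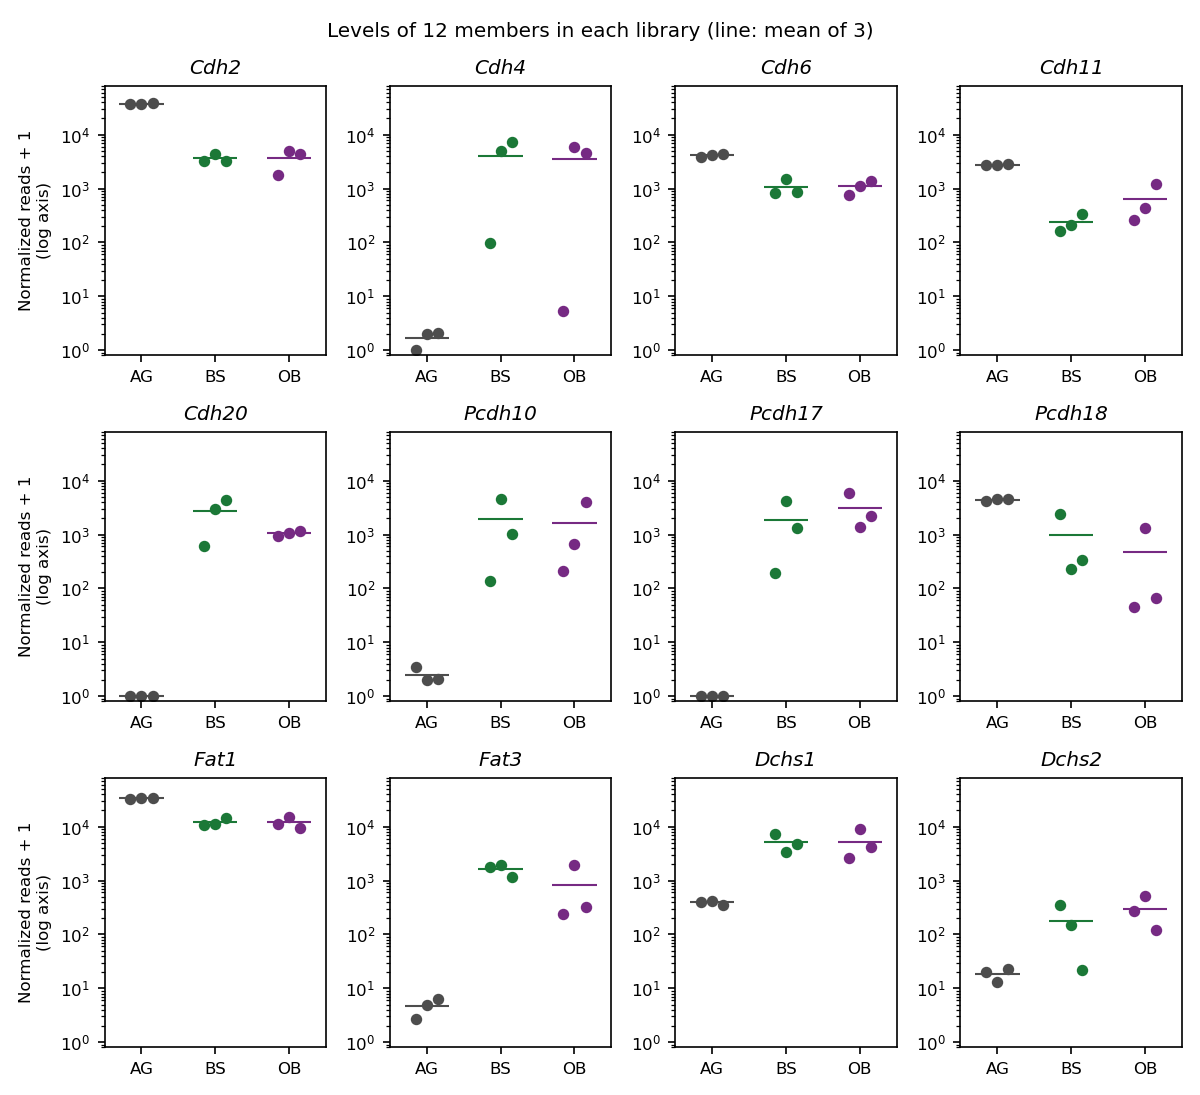
Normalized reads + 1 (log axis) of 12 members in each AG, BS and OB library; points are libraries and lines are means of 3. AG points of Cdh2, Cdh6, Cdh11 and Fat1 nearly coincide, and the tumour points of Cdh4 span 4.42 to 7243 normalized reads.

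In the Fat and Dachsous family Fat1 fell, Fat3 rose and Dchs1 rose at both sites. Fat1, a Fat cadherin that organizes actin at cell contacts, had 32642, 34682 and 34464 in AG. It had 10702 in BS_287, 10991 in BS_295 and 14670.1 in BS_296, and 11445 in OB_257, 14980.0 in OB_287 and 9461 in OB_295. Tumour libraries lay close together, all below AG, and the ratio of means was 2.8-fold lower in BS and 2.84-fold lower in OB. limma put the difference from AG at -1.50 ± 0.20 (SE) in BS (limma adjusted p = 0.000666) and -1.53 ± 0.20 in OB (limma adjusted p = 0.000606). Fat3, which shapes the dendrites of retinal amacrine neurons, had 1.67, 3.94 and 5.44 in AG. Fat3 reached 1757 in BS_287, 1913 in BS_295 and 1146 in BS_296, and 238 in OB_257, 1957 in OB_287 and 321 in OB_295. On the log2 scale the difference from AG was 8.48 ± 0.75 (SE) in BS (limma adjusted p = 7.14e-05) and 6.92 ± 0.75 in OB (limma adjusted p = 0.000219). OB_287 was like the BS libraries, and OB_257 and OB_295 were lower. Fat4, the mammalian Fat that pairs with Dachsous-1, was not called: it had 1345 to 1528 in AG, 859.6 to 3552 in BS and 84.0 in OB_257, 1072 in OB_287 and 824 in OB_295. All OB values were below AG, and BS values lay on both sides (limma adjusted p = 0.161 in OB and 0.955 in BS).

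Dchs1, which encodes the Dachsous ligand of Fat4, had 393, 423 and 358 in AG. It had 7238 in BS_287, 3335 in BS_295 and 4771 in BS_296, and 2628 in OB_257, 8896 in OB_287 and 4235 in OB_295. The lowest tumour library was above the highest AG library by a wide margin, and the ratio of means was 13.1-fold in BS and 13.4-fold in OB. Against AG, the log2 difference was 3.64 ± 0.43 (SE) in BS (limma adjusted p = 0.000375) and 3.56 ± 0.43 in OB (limma adjusted p = 0.000421). Dchs2 had 19.2, 11.8 and 21.8 in AG. It had 347 in BS_287, 151 in BS_295 and 20.7 in BS_296, and 273 in OB_257, 512 in OB_287 and 117 in OB_295. BS_296 was within the AG range and the other 5 were above it. The call was made in OB (3.82 ± 0.97, limma adjusted p = 0.0156) and not in BS (2.54 ± 0.97, limma adjusted p = 0.0726), and the difference between sites did not pass (limma adjusted p = 0.696). In BS Dchs2 was called without BS_296 (limma adjusted p 0.0066), with edgeR (0.0276) and with DESeq2 (0.000767), and in OB not without AG_2 (0.0589).

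Of the planar polarity cadherins, Celsr1 had 133, 143 and 87.1 in AG. Celsr1 had 1806 in BS_287, 297 in BS_295 and 513 in BS_296, and 951 in OB_257, 1459 in OB_287 and 254 in OB_295. All tumour values were above AG, with BS_287 and OB_287 the highest. The difference from AG was 2.45 ± 0.77 (SE) in BS (limma adjusted p = 0.0388) and 2.57 ± 0.77 in OB (limma adjusted p = 0.0322). The call ended without AG_1, AG_2, AG_3, BS_287 or BS_296 in BS (limma adjusted p 0.0703 to 0.121; the difference was 1.71 without BS_287) and without AG_1, AG_2, AG_3, OB_257 or OB_287 in OB (0.0725 to 0.106). Celsr2 was below AG in every tumour library (46.9 to 148 against 158 to 169) and was not called (limma adjusted p = 0.17 in BS and 0.251 in OB), except in BS without BS_287 and OB_257 (0.0379). Of its 2 annotated transcripts, 1 is in the table.

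Upstream sequences were read for members that changed the same way at both sites without overlap between AG and tumour libraries and reached a mean of 50 normalized reads in some group. Of 14 such genes 7 had an entry in the RefSeq promoter table (GRCm38.p6): Cdh20, Cdh24, Fat3, Pcdh10 and Pcdh17, which were higher in the tumours, and Cdh6 and Fat1, which were lower. The 250 bases before the annotated start are shown, 5′ to 3′ on the gene's strand, for the 4 genes that were at or near 0 reads in AG and, as a gene that fell, for Cdh6. They lie at chr1:104768270-104768519 (+ strand), chr9:16502055-16502304 (- strand), chr3:45378148-45378397 (+ strand), chr14:84443313-84443562 (+ strand) and chr15:13173676-13173925 (- strand). Capitals mark GC boxes (GGGCGG on either strand, bound by Sp family factors).
Cdh20: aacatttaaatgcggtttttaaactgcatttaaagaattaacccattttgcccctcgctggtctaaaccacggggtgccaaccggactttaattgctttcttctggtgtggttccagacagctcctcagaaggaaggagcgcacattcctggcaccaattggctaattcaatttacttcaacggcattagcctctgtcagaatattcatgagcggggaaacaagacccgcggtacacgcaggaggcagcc
Fat3: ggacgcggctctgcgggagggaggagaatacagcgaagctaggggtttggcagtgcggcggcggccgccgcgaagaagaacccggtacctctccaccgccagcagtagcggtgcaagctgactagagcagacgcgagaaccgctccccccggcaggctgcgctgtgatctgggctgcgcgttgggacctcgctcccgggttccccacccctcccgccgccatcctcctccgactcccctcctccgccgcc
Pcdh10: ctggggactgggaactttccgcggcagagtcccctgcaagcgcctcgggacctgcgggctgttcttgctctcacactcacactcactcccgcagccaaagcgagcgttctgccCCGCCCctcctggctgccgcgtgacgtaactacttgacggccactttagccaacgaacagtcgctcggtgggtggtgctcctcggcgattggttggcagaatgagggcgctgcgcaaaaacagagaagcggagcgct
Pcdh17: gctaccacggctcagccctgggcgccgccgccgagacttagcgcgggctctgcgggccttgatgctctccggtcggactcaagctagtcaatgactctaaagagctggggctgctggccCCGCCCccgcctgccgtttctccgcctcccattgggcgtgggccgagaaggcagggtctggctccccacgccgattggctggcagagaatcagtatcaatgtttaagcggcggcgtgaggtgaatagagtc
Cdh6: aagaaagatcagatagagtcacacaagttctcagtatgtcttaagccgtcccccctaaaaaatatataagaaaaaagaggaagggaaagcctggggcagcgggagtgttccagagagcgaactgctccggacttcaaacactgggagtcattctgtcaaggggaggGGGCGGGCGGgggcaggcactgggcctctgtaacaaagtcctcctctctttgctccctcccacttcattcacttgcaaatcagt
A GC box was found in 4 of the 7 windows (Cdh24, Cdh6, Pcdh10 and Pcdh17), and in 32.7% of all 32851 windows of this length. The E-box CAGGTG, the site of Snail and Zeb repressors, was found in Fat1 only of the 7, against 17.2% of all windows. The Fat1 hit lies near the end of a window with 42% G and C, after a run rich in T and C. Whether that window is a promoter, or the hit a repressor site, was not tested. The E-boxes CAGCTG of neural bHLH factors (13% of all windows) and CATATG of Olig factors (3.46%), the forkhead core GTAAACA (3.17%) and the TATA box TATAAA (12.4%) were in 0 of the 7. Each motif was searched on both strands, and no hits of different motifs overlapped. The ratio of observed to expected CpG was 0.883 in Pcdh10, 0.877 in Fat3, 0.8 in Pcdh17, 0.709 in Cdh20 and 0.665 in Cdh24, against 0.367 in Cdh6, 0.185 in Fat1 and a median of 0.373 over all windows. All 5 members that were higher in the tumours lay above both that were lower in this measure. Only Cdh6 and Fat1 stand for the lower genes, and only 7 of the 14 genes had an entry. A link between this measure and the direction of change was not tested.

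The 8 members that did not pass the filter had few reads. Cdh15, the muscle cadherin, had 0 reads in AG and 33.2 in OB_257, 3.81 in OB_287 and 32.6 in OB_295, with at most 2.52 in BS. The skeletal muscle markers Myod1, Des and Chrna1 summed to at most 1.67 in AG, against 2.52 to 12.8 in BS libraries and 9.52 to 20.7 in OB libraries, and their part in the Cdh15 reads was not tested. Cdh18 was seen in OB_257 (28.7) and OB_295 (9.78) and was at 1.97 or less elsewhere. Cdh19, a cadherin of Schwann cell precursors and other Sox10-positive glia, had 23.5 in BS_295 and 19.9 in OB_257, with 0 to 1.09 in the remaining 7 libraries. Fat2, the Fat cadherin of cerebellar granule cells, had 133 in BS_296 and at most 7.88 elsewhere. Endothelial Cdh5 had 0 in AG and at most 9.85 in the tumours, and the 4 endothelial markers in the table summed to 928 to 1056 in AG, nearly all of it Flt1, and to 33.2 to 241.5 in the tumour libraries. Cdh26 had 1.97 to 3.34 in AG and 0 reads in the tumours, and Pcdh12 and Pcdh15, a hair cell protein with 14 annotated transcripts of which 1 is in the table, had at most 5.71 anywhere.

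Between olfactory bulb and brainstem tumour cells limma called 0 of the 25 members and 0 of 10576 genes (0%), with 2 members, Cdh10 and Cdh11, at an unadjusted p under 0.05. edgeR and DESeq2 also called 0 members, each with 4 at an unadjusted p under 0.05, and 0 and 233 of all genes. Of the 18 members whose tumour libraries all lay on 1 side of AG, the site difference was under 0.5 in size for 9, between 0.5 and 1 for 2 and over 1 for 7 (Cdh1, Cdh4, Cdh11, Cdh17, Fat3, Pcdh17 and Pcdh18). It was -0.08 ± 0.35 (SE) for Cdh2, -0.03 ± 0.20 for Fat1, -0.07 ± 0.43 for Dchs1 and 0.05 ± 0.29 for Cdh6. For Cdh1 it was 2.20 ± 1.06, for Pcdh18 -1.85 ± 1.29, for Fat3 -1.56 ± 0.75, for Pcdh17 1.39 ± 1.01, for Cdh11 1.19 ± 0.52 and for Cdh17 1.03 ± 0.47. For Cdh4 it was -1.52 ± 2.67 and for Pcdh10 -0.10 ± 1.34, where the SE leaves room for a difference of several-fold in either direction. Cdh10 was the only tested member whose OB and BS libraries did not overlap, where 9.99% of all genes did not. Its site difference of -1.27 ± 0.38 was not called (limma adjusted p = 0.358).

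Tumour libraries of 1 site were far apart for many members. On the log2 scale the median SD of a member over AG libraries was 0.11, over BS libraries 1.07 and over OB libraries 1.06, against 0.116, 0.466 and 0.483 over all tested genes, and 13 of 25 members had an SD over 1 in BS and 13 in OB. The largest spreads were those of Cdh4 in OB (SD 5.72) and Pcdh20 in BS (SD 4.09). Ties included, OB_257 was the lowest tumour library for 11 members, BS_287 for 8, OB_295 for 3, OB_287 and BS_296 for 2 each and BS_295 for 1. The ties were at 0 reads: Pcdh19 in OB_257 and BS_287, and Cdh17 in BS_287 and BS_296. OB_257 was at the bottom for Cdh4, Cdh2, Cdh6, Cdh13, Cdh22, Dchs1, Fat3, Fat4, Pcdh18, Pcdh19 and Pcdh20, but at the top for Pcdh17 and Cdh24. BS_287 was at the bottom for Cdh20, Pcdh10, Pcdh17, Pcdh1, Cdh1, Cdh11, Cdh17 and Pcdh19, and at the top for Celsr1, Celsr2, Pcdh18 and Cdh10. Both are the libraries that lay apart over all genes. OB_257 also differed in glial genes, with Sox9 at 25.4 and Slc1a3 at 88.4 against 2836 to 5229 and 11447 to 25665 in the other tumour libraries, and Sox10 at 30528; their part in its cadherin levels was not tested. Without both libraries, an alternative added after the data were seen, 18 members were called in BS and 20 in OB, while the calls over all genes rose from 3712 to 4740 and from 3695 to 4781 of 10576.

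The partners of cadherins were taken from lists of known genes. Their counts stand against 15.6% of all tested genes called higher and 19.5% lower in BS, and 16% and 19% in OB. Among catenins, nectins and their linkers, 4 of 10 tested fell in BS and 0 rose, and 4 fell and 2 rose in OB. Ctnna1, alpha-catenin, which ties cadherins to actin, had 18989.6, 18435 and 18529.6 in AG, and 5345 to 8718 over the tumour libraries. The difference was -1.61 ± 0.18 in BS (limma adjusted p = 0.000265) and -1.46 ± 0.18 in OB (limma adjusted p = 0.00047). Plakoglobin (Jup), the catenin of desmosomes, went from 6113 to 7373 in AG to 273 to 1670.0 in the tumours, at -3.46 ± 0.71 in BS (limma adjusted p = 0.00644) and -3.46 ± 0.71 in OB (limma adjusted p = 0.00627). Vinculin (Vcl), which reinforces junctions under tension, stood at 19852 to 20824 in AG and 1146 to 3644 in the tumours, and Nectin3 at 2276 to 2640 and 190.1 to 558. In none of these 4 did AG and tumour libraries overlap. Ctnnal1 (0.91 ± 0.29, limma adjusted p = 0.0403) and Hook1 (1.64 ± 0.42, limma adjusted p = 0.017) rose in OB. Beta-catenin (Ctnnb1), with 2 annotated transcripts, had at most 12.8 normalized reads and was not tested. The list summed to 50450.0 to 51000.0 in AG libraries, 9910.0 to 13600.0 in the BS libraries and 14140.0 to 16240.0 in the OB libraries.

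Transcription factors that repress cadherin genes had 5 of 8 tested genes called lower at each site, where 19.5% of all genes were in BS and 19% in OB. Snai2, Slug, had 459, 433 and 399 in AG and at most 3.26 in any tumour library, at -6.92 ± 0.57 in BS (limma adjusted p = 4.88e-05) and -7.40 ± 0.57 in OB (limma adjusted p = 3.72e-05). Twist1 had 742, 707 and 729.6 in AG. It had 73.0 in BS_287, 2.13 in BS_295 and 120.2 in BS_296, and 1.11 in OB_257, 5.71 in OB_287 and 1.09 in OB_295, at -4.58 ± 1.23 in BS (limma adjusted p = 0.0205) and -7.88 ± 1.23 in OB (limma adjusted p = 0.00151). Twist2 had 0 reads in the tumours, at least 40.4-fold lower in BS and at least 37.2-fold lower in OB. Snai1 differed by -3.30 ± 0.51 in BS (limma adjusted p = 0.00156) and -3.80 ± 0.51 in OB (limma adjusted p = 0.000734). Zeb1 was the only one of the 8 that rose, in BS (4.17 ± 0.97, limma adjusted p = 0.011), from 2.5 to 5.44 in AG to 40.3 to 161 in BS; in OB it had 3.32 in OB_257, 46.6 in OB_287 and 53.3 in OB_295 and was not called. Zeb1 has 3 annotated transcripts and few reads here.

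Of 26 planar polarity and Hippo genes, 3 rose and 9 fell in BS, and 3 rose and 11 fell in OB, that is 12 and 14 of 26 called where 35.1% and 34.9% of all genes were. The Van Gogh-like genes of planar polarity moved apart. Vangl1 had 1876, 1937 and 1841 in AG, and 169 to 480 over the tumours. Vangl2, its neural relative, had 862, 784 and 718 in AG, and 2195 to 4445 over the tumours. The differences of Vangl1 were -2.84 ± 0.32 in BS (limma adjusted p = 0.000254) and -2.26 ± 0.32 in OB (limma adjusted p = 0.000867), and those of Vangl2 1.93 ± 0.26 in BS (limma adjusted p = 0.000728) and 1.86 ± 0.26 in OB (limma adjusted p = 0.000876). Fzd3, the Frizzled that acts with Celsr proteins in axon tracts, rose too (2.22 ± 0.38 in BS and 1.49 ± 0.38 in OB). These 3 were picked after their values were seen. The largest changes of the list were those of Ccn2 and Ccn1, targets of YAP and TEAD. Ccn2 had 9146, 8749 and 8799.8 in AG and 1.11 to 86.9 in the tumours, at -9.40 ± 1.23 in BS (limma adjusted p = 0.000624) and -8.91 ± 1.23 in OB (limma adjusted p = 0.000822). Ccn1 had 44459, 43406 and 42682 in AG and 64.6 to 1632 in the tumours, at -6.99 ± 1.02 in BS (limma adjusted p = 0.00113) and -5.91 ± 1.02 in OB (limma adjusted p = 0.00262). Tead1 and Tead4, the TEAD factor genes tested, fell too, from few reads: Tead1, with 3 annotated transcripts, went from 42.4 to 66.4 in AG to at most 2.17, and Tead4 from 15.8 to 19.2 to at most 3.94. Tead3 did not pass the filter, with at most 2.5 in AG and 5.87 in the tumours. Yap1 and Wwtr1 have 2 annotated transcripts each and few reads here. Yap1 had 10.8 to 22.9 in AG and 0 to 13.3 in the tumours, and was not called (limma adjusted p = 0.559 in BS and 0.117 in OB). Wwtr1 had 10.8 to 19.2 in AG and 3.35 to 9.85 in the tumours. It was called lower in OB only (limma adjusted p = 0.033, and 0.0686 in BS), and the difference between the sites did not pass (limma adjusted p = 0.872). Amotl2, a YAP inhibitor, differed by -3.35 ± 0.60 in BS and -1.86 ± 0.60 in OB, where OB_257 had 8659.5 against 819 to 3555 in the other tumour libraries. Of 9 proteases that cut cadherins or their fragments, 5 fell and 1 rose at each site. Mmp14 had 7261, 7236 and 6794 in AG against 2.21 to 388 in the tumours, Mmp3 had 0 reads in the tumours (at least 574-fold lower in BS and at least 528-fold lower in OB), and Capn2 fell (-2.39 ± 0.29 in BS and -3.05 ± 0.29 in OB). Adam15 was the one that rose (1.31 ± 0.31 and 0.93 ± 0.31). Of 5 WAVE complex genes, which Pcdh10 and other protocadherins bind, Wasf1 rose (2.03 ± 0.52 in BS and 2.81 ± 0.52 in OB) and Wasf2 fell (-1.38 ± 0.18 and -1.22 ± 0.18) at both sites, and Wasf3 rose in BS (1.03 ± 0.31). Of 5 genes for protein phosphatase subunits and other protocadherin partners, Ppp1ca fell in BS (-0.84 ± 0.16) and Fzd7 in OB (-1.45 ± 0.35). In OB against BS limma called 0 genes of these lists.

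**Figure D4:**
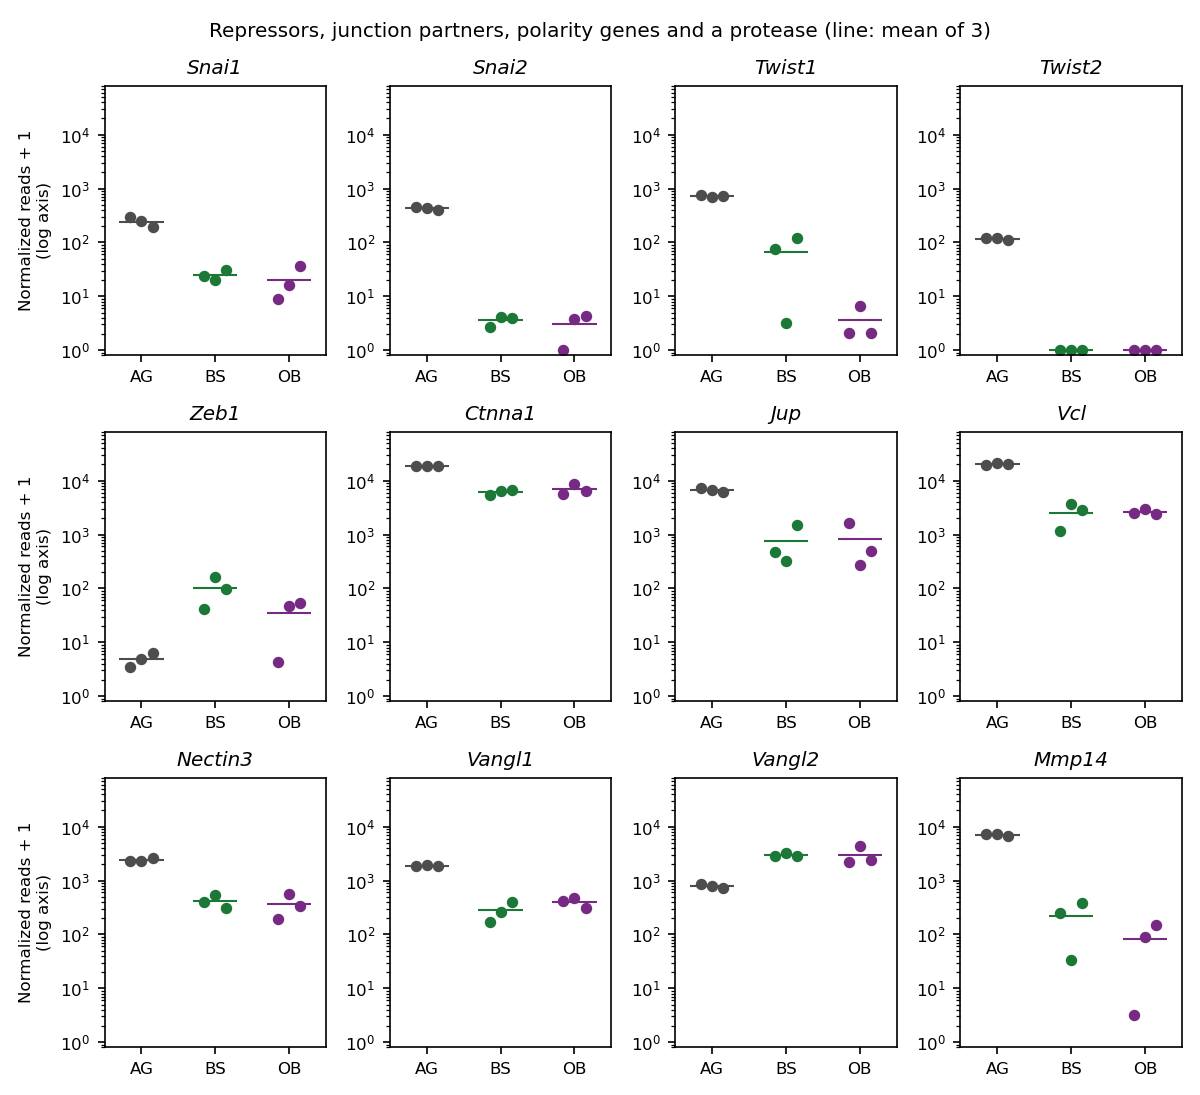
Normalized reads + 1 (log axis) of 12 partner genes in each library; points are libraries and lines are means of 3. Twist2 is at 0 reads in all tumour libraries, Vangl1 lies lower and Vangl2 higher in the tumours than in AG, and Zeb1 has its lowest tumour value, 3.32, in OB_257.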

How the data were processed

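RNA of 9 mouse libraries was prepared with a stranded TruSeq kit, per the labels' protocols. Per the submitters' processing notes, which give no role or order, the build was mm9 and the tools were HISAT2 2.1.0, DESeq2 1.20.0, bcl2fastq 1.8.4 and featureCounts (Subread 1.6.2). Annotation, strand setting and handling of shared reads: not given in the sources used here, so that reads of a gene and its antisense partner cannot be told apart. The deposited table holds signal values of 16260 RefSeq transcripts, which are reads that the authors divided by a size factor: multiplied back, 100% came out whole within 0.05 reads. Transcripts were named from RefSeq (16198) or GENCODE (45) tables, 17 stayed unnamed and were left out, and rows were added per symbol. Of the members 24 have 1 annotated transcript and 9 have more, whose values may be too low.

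Tests of log2(value + 1) used limma 3.58.1 (R 4.3.3), all 9 libraries in 1 model, with a variance trend, two-sided, Benjamini-Hochberg over 10576 genes, called under 0.05. Alternatives were other pseudocounts, filters and scaling, the highest row per symbol, fits of 2 groups, edgeR 4.0.16 and DESeq2 1.42.0 on the recovered reads, a replicate block and each library left out; the code was tested on simulated data. Libraries of a group differed beyond sampling noise (chi-square per degree of freedom of at least 4.9). A group at 0 reads gave a bound against 3 reads per library, and 1 to 3 reads an exact (Clopper-Pearson) 95% interval; both cover counting error only. Members called in some comparison with a mean of at least 50 in some group are given by library, and up to 4 called genes of each partner list and comparison, those with the largest changes, are named, with exceptions where stated. Members and lists were chosen with earlier results of these data known. Figures used matplotlib 3.10.9.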

Additional observations from a re-analysis of the deposited data

How the results depend on the processing

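The members called in BS against AG numbered 13 to 17 when 1 library was left out, those in OB against AG 13 to 19, and those in OB against BS 0 in each case; the lowest counts, 13 and 13, came without an AG library. Under the other alternatives 14 to 18 members were called in BS and 16 to 21 in OB, and no tested member changed direction where it was called. The number tested was not always 25. Without a filter 17 of 33 were called in BS and 21 of 33 in OB, against 4023 and 4105 of 14771 genes. With the filter of 50 these were 14 and 16 of 22, against 3022 and 2983 of 8042 genes. DESeq2 tested 24 members. In OB against AG the calls over all genes fell from 3695 to between 2502 and 2532 without 1 AG library. Over all alternatives of the 25 tested members in the 3 comparisons, 1374 results kept their side of the threshold, 46 lost the call and 18 gained it; Cdh10, Cdh17 and Pcdh19 were not tested under the filter of 50, and DESeq2 gave Pcdh18 no adjusted p. Over all genes, the calls in BS against AG fell from 3712 to 2427 to 2464 without 1 AG library, and the 0 calls in OB against BS became 4 and 6 with pseudocounts of 0.5 and 5, 233 with DESeq2, 96 without OB_287, 69 without BS_287 and OB_257, and 1, 3 and 3 without BS_295, BS_296 and OB_257. BS_287 shares its number with OB_287, and BS_295 with OB_295; what the number stands for is not in the labels. Deviations of these pairs from their group means correlated at 0.069 and 0.299. With that number as a replicate block in OB against BS, 2 members (Cdh1 at 3.30 and Cdh11 at 1.97, both higher in OB) and 251 genes were called. With 2 shared numbers the differences of this fit rest on 4 tumour libraries. Its spread comes mostly from the AG libraries, whose median SD over all tested genes was 0.116 against 0.466 in BS and 0.483 in OB. Its calls between the tumour sites are therefore less certain. The cause of these changes in calls was not tested. Tumour libraries vary more than AG libraries while the fit shares 1 spread, and some tested members have few reads: Cdh10, Cdh17 and Pcdh19 had at most 57.2 normalized reads in any library.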
